A study of Mus musculus with 16 samples.

Results

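The cytoplasmic ribosome of the mouse is built from ribosomal RNA and a fixed set of ribosomal proteins, and 76 of the 21965 genes in the count table encode such proteins under the rule used here. A gene was included when its mouse symbol was Rps or Rpl followed by a number, with at most an added a or x, or when it was Rpsa, Rplp0, Rplp1 or Rplp2. The rule read names only and no measured value. It gave 30 genes of the small subunit, 43 genes of the large subunit and 3 genes of the stalk. All 76 passed the filter on low counts, as did 13811 genes in all. The rule leaves out mitochondrial ribosomal proteins, paralogues with longer symbols and ubiquitin or ubiquitin-like fusions with longer or other symbols, some of which are described after the members.

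As background, the small subunit reads the mRNA and the large subunit joins the amino acids, while the stalk, made of Rplp0, Rplp1 and Rplp2, recruits the translation factors that hydrolyse GTP. Apart from the stalk, each particle holds 1 copy of each protein. Their mRNAs begin with a run of C and T bases, the terminal oligopyrimidine tract, through which mTOR signalling sets their translation as a group. The intestinal epithelium renews itself without pause from crypt stem cells, and ribosome production is high in dividing crypt cells.

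The study asked how chronic ethanol feeding and a raised level of n3 fatty acids alter the transcriptome of the mouse ileum, the last segment of the small intestine. Every mouse was a C57BL/6 male, and each library came from 1 mouse. Wild-type littermates (WT) were set against fat-1 mice, labelled Fat1+/-, which are heterozygous for a transgene of a roundworm n3 desaturase that is expressed throughout the body and converts n6 into n3 fatty acids. Ethanol-fed mice (EtOH) received a liquid diet with stepwise rising ethanol that ended at 6% (v/v) for 3 weeks, and pair-fed mice (PF) received an ethanol-free liquid diet of equal calories. The libraries of poly(A) RNA, prepared so that the strand is kept, came from 4 WT and 4 fat-1 mice on PF and from 3 WT and 5 fat-1 mice on EtOH. The transgene is not a mouse gene of the count table and was not analysed here, so the genotype labels were not checked against it. In the submitters' numbering the PF libraries are 1 to 8 and the EtOH libraries 9 to 16, so library order and diet cannot be told apart. The RNA came from whole pieces of tissue, in which fewer cells of a type and less RNA per cell cannot be told apart.

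Total counts ran from 8422645 to 11438539 per library. Several libraries stood apart from their groups. Over 5 genes of the large intestine, the mean log2 CPM (counts per 1000000 of the scaled library size) was 8.39 in WT EtOH 2, 8.80 in fat-1 EtOH 3 and 8.40 in fat-1 EtOH 4, against 3.33 to 5.23 in the other 13 libraries. The 7 Paneth cell genes averaged 3.58 and 3.62 in fat-1 EtOH 3 and 4, against at least 8.52 elsewhere, and 6 genes of the ileum averaged least in fat-1 PF 4 and fat-1 PF 2, at 4.34 and 5.18. Genes of B cells and T cells were highest in fat-1 EtOH 5, with mean log2 CPM of 6.14 and 4.86. Smooth muscle genes differed by diet, and their 8 genes summed to 1127 to 1510 CPM in WT PF, 968 to 1424 CPM in fat-1 PF, 2053 to 2705 CPM in WT EtOH and 1944 to 4205 CPM in fat-1 EtOH. The 15 genes of the proximal small intestine summed to 7925 to 28260 CPM in WT PF, 19643 to 70580 CPM in fat-1 PF, 3587 to 4911 CPM in WT EtOH and 543 to 6649 CPM in fat-1 EtOH. Fgf15, a defining gene of the ileum, had no count in 1 library, and among the large intestine genes, Hoxd13 and Hoxb13 had no count in 15 and 13 of the 16 libraries. Values without some of these libraries stand beside the results of the members, the mitochondrial ribosomal proteins and the ribosome biogenesis genes. They are not given for the other gene lists.

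The start of the genes is where the tract known for the family would lie, so windows of 30 bases are shown for 4 members that passed a test between groups, 2 that lay at the other end of that comparison, the S6 kinase target Rps6, the stalk gene Rplp2 and a gene with an unusually long run. They were taken from a RefSeq promoter table on the GRCm38.p6 assembly, in which 56 of the 76 members had an entry. Each window is written 5′ to 3′ on the strand of the gene with the annotated start as its 16th base, and capitals mark the longest run of C and T bases that touches the 10 bases on either side of the start.
Rpl13a, chr7:45128731-45128760, minus strand: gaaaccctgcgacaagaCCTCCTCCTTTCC
Rpl38, chr11:114668565-114668594, plus strand: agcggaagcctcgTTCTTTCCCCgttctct
Rps2, chr17:24720048-24720077, plus strand: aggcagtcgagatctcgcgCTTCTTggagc
Rpl41, chr10:128549154-128549183, minus strand: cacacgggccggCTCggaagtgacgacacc
Rpl6, chr5:121204486-121204515, plus strand: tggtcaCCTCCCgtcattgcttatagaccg
Rplp0, chr5:115559452-115559481, plus strand: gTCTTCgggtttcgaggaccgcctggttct
Rpl7a, chr2:26910792-26910821, plus strand: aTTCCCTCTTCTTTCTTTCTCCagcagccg
Rps6, chr4:86857353-86857382, minus strand: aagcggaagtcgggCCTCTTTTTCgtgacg
Rplp2, chr7:141447636-141447665, plus strand: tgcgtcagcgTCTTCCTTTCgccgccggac

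A run of at least 8 C or T bases lay at this position in 27 of the 56 members, or 48.2%, and in 16.1% of all 27025 genes of the table. The run was 14 bases long in Rpl13a, where its last base lies beyond the window shown, 10 in Rpl38, 6 in Rps2 and 3 in Rpl41. At the starts listed, the 4 members that passed a test thus ranged from a long run to almost none. For Rps2 and Rpl41 the listed start lies inside the gene bounds given below, and starts outside the promoter table were not searched. Rpl7a held a run of 21 bases. From 250 bases before to 50 bases after the start, the letters CTTCCG, searched on both strands, occurred in 69.6% of members and 18.8% of all genes, and TATAAA in 10.7% and 15.7%. These are matches of letters in a window and not measured sites.

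The 76 genes together held 161365 to 295319 counts per library. As a share of all counts this was 2.07%, 2.31%, 2.14% and 2.20% in WT PF replicates 1 to 4, and 2.13%, 1.92%, 2.50% and 1.96% in fat-1 PF. It was 2.12%, 2.20% and 2.24% in WT EtOH, and 2.34%, 2.24%, 2.73%, 2.89% and 2.85% in fat-1 EtOH. The 3 highest libraries were all fat-1 EtOH, but fat-1 EtOH 2 lay below fat-1 PF 3, so the groups overlapped. The 95% Wilson interval, which covers counting error only, was 1.91% to 1.93% for the lowest library and 2.88% to 2.90% for the highest.

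The share depended on what it was divided by. Library sizes were rescaled with TMM (the trimmed mean of M-values), which takes out the weight of a few very abundant genes, and its factors were 0.846 to 0.938 in fat-1 PF and 1.04 to 1.25 in fat-1 EtOH. The 20 most abundant genes took 3.66% and 3.99% of the counts in fat-1 EtOH 3 and 4, the libraries with few Paneth cell transcripts, and 9.91% to 13.4% in the others. As a share of the TMM-scaled library size, ribosomal protein counts were 2.32% ± 0.179 (SD, n = 4) in WT PF, 2.42% ± 0.315 (n = 4) in fat-1 PF, 2.11% ± 0.0847 (n = 3) in WT EtOH and 2.29% ± 0.147 (n = 5) in fat-1 EtOH. On that scale fat-1 EtOH no longer lay above fat-1 PF, and fat-1 PF 3 was the highest library at 2.90%.

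**Figure D1:**
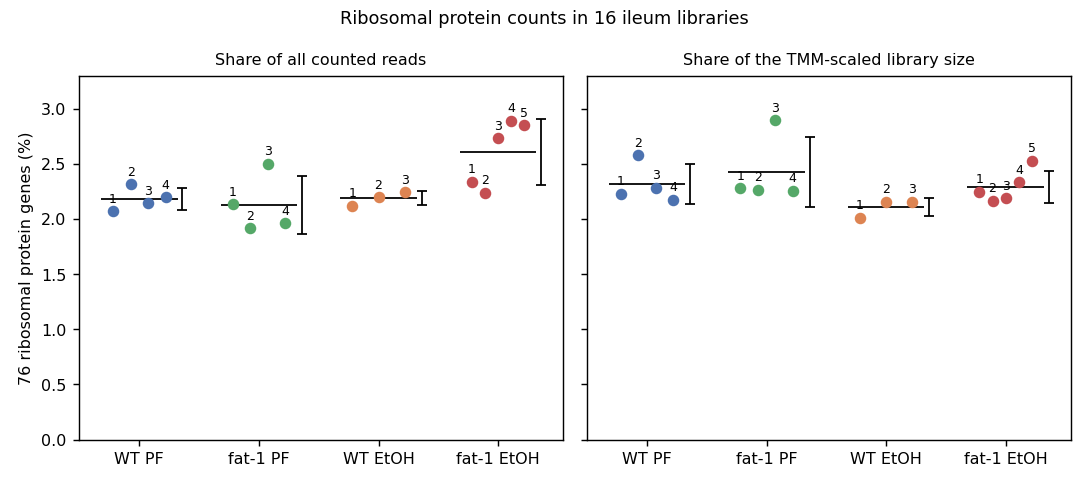
Share of the 76 ribosomal protein genes, in percent, of all counts (left) and of the TMM-scaled library size (right), by group. Each point is 1 library with its replicate number, and lines and bars give the group mean and SD (n = 3 to 5); fat-1 EtOH has the highest mean on the left, 2.61%, and fat-1 PF has it on the right, 2.42%.

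The members spanned a wide range of levels per exon length. In TPM (counts per exon length, scaled to 1000000 in each library), Rplp1, which encodes a stalk protein bound to ribosomes in several copies, had the highest mean at 3827 ± 659 (SD over 16 libraries, 3209 to 5439) and ranked 24th among all genes of the table. Rps12 followed with a mean TPM of 2191 ± 284, and Rps29 was also near the top with 1647 ± 266. At the other end, Rpl13a, known outside the ribosome for silencing translation of inflammatory mRNAs after interferon gamma, had a mean TPM of 81.1 ± 9.46 (65.4 to 101). Rps15a, Rpl15 and Rpl35 had mean TPM of 117 ± 21.5, 127 ± 19.0 and 170 ± 27.7.

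How reads were assigned may bear on levels between genes, and its part was not tested. Ribosomal proteins have many processed pseudogenes, and a read that fits several places may have been dropped. Of the 75-base windows of the longest coding transcript of each gene, 0% also occurred in transcripts of other annotated genes for Rps3, but 92.5% for Rpl5, 89.2% for Rpl35, 82.6% for Rps12, 56.3% for Rpl13a, 29.3% for Rpl15 and 4.13% for Rps15a, so a large shared portion was found at both ends of the order. The exons of Rps15a covered 5395 bases against 499 for Rplp1, which lowers a level per length where short isoforms prevail. The order of levels between members is therefore uncertain.

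**Figure D2:**
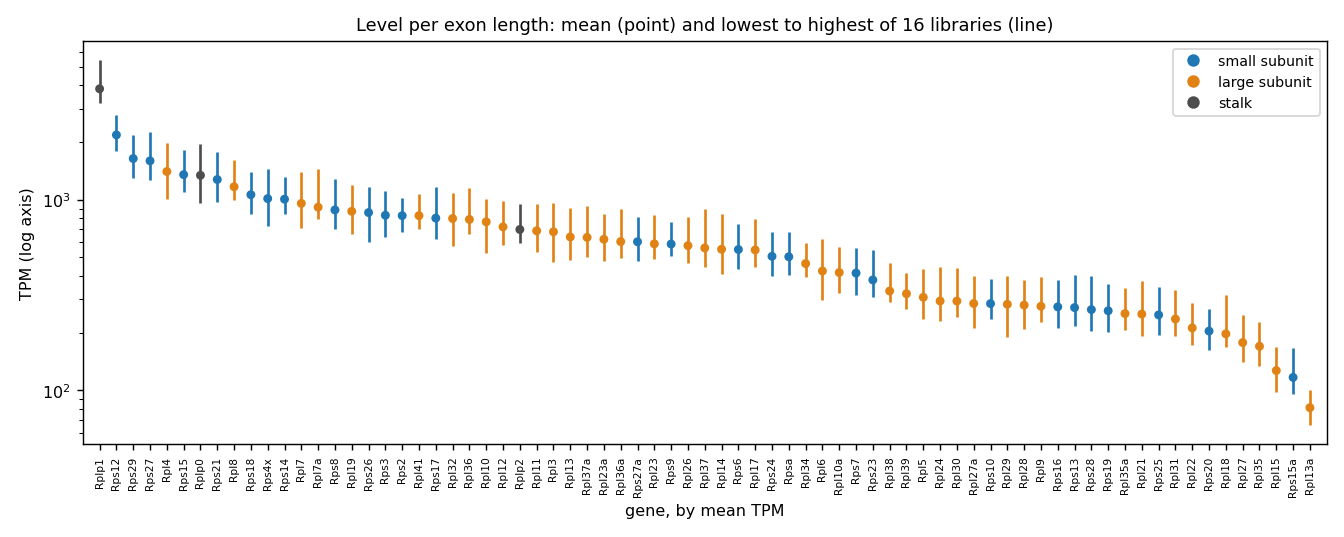
Level per exon length of 73 of the 76 ribosomal protein genes in TPM on a log axis, ordered by mean over 16 libraries and coloured by subunit. Points are means and lines run from the lowest to the highest library; the means fall from 3827 for Rplp1 to 81.1 for Rpl13a, and small and large subunit genes are mixed along the order.

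Within groups the members varied together. The median within-group SD of log2 CPM was 0.137 for the 76 members (0.0705 to 0.187), 0.199 for the 4375 genes in the same range of mean level, and 0.267 for all genes tested. After the mean of the members was taken out of each library, the median SD was 0.0649, so much of the spread of a member was shared with the others. In fat-1 PF 3 all 76 members lay above their own mean over the 16 libraries, and 75 did so in WT PF 2 and 73 in fat-1 EtOH 5. The number was 1 in WT EtOH 1, 11 in WT EtOH 2, 12 in WT EtOH 3, 10 in fat-1 EtOH 2 and 9 in WT PF 4. The median deviation from the gene's own mean was 0.34 on the log2 scale in fat-1 PF 3, 0.16 in WT PF 2, 0.15 in fat-1 EtOH 5 and -0.20 in WT EtOH 1. Of these libraries, fat-1 EtOH 5 was also the library with the highest B cell and T cell genes, whose part in its level was not tested.

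**Figure D3:**
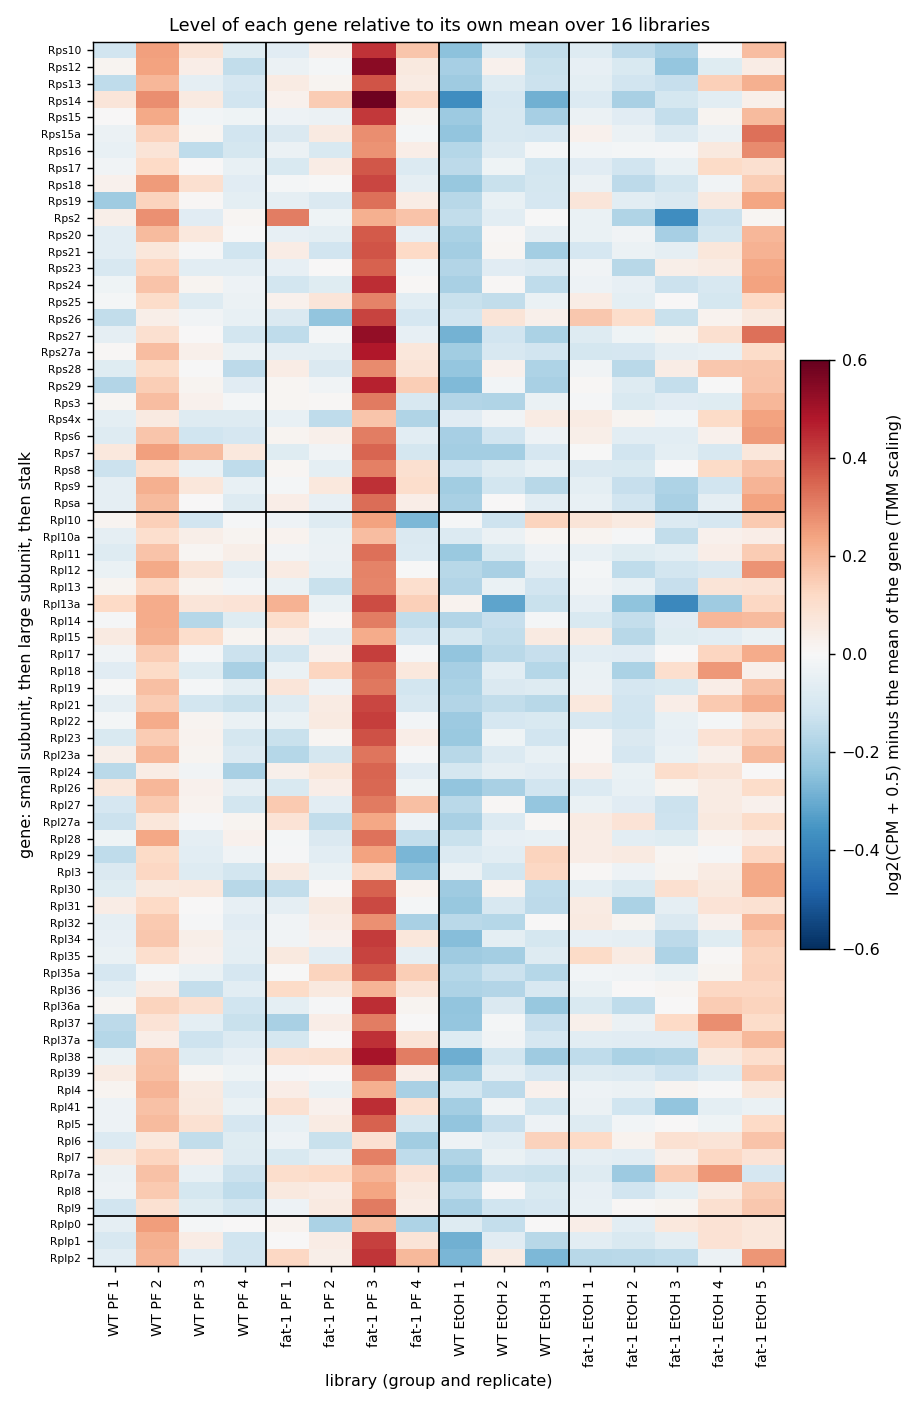
Level of 73 of the 76 genes in each of 16 libraries as log2(CPM + 0.5) minus the mean of the gene, with TMM scaling, from blue (lower) to red (higher). Rows are genes by subunit and columns are libraries by group; fat-1 PF 3 is red from top to bottom and WT EtOH 1 is blue almost throughout, with median deviations over the 76 genes of 0.34 and -0.20.

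The balance between subunits moved little. Summed counts of small subunit genes divided by those of large subunit and stalk genes gave 0.783 to 0.790 in WT PF, 0.773 to 0.822 in fat-1 PF, 0.759 to 0.794 in WT EtOH and 0.733 to 0.804 in fat-1 EtOH. The lowest values, 0.733 and 0.739, were those of fat-1 EtOH 3 and 4, the libraries with high large intestine genes, and the part of those genes in it was not tested. The large intestine genes summed to 12118 and 13113 CPM in these libraries and to 5176 CPM in WT EtOH 2, which had 0.794, the highest ratio of its group. The stalk genes made up 8.77% to 9.37% of ribosomal protein counts.

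The genotype comparison on the control diet asked what the transgene changes without ethanol. No member passed the edgeR quasi-likelihood test at a Benjamini-Hochberg adjusted p of 0.05, and neither did any other gene (0% called higher and 0% called lower of 13811). At an unadjusted p under 0.05, 3 members were higher and 0 were lower, while 9.25% of all genes were higher and 3.48% lower. DESeq2 called 0 members, against 1.25% of all genes higher and 0.123% lower, and limma voom called 0, against 0.181% and 0.0434%. The fold changes of the members lay slightly above those of all genes. Their median log2 fold change was 0.08 (-0.09 to 0.25) against 0.02 for all genes, and 65 of 76 were above 0 against 52.5% of all genes. The medians were 0.09 for the small subunit, 0.06 for the large subunit and 0.13 for the stalk. This rested on 1 library, since the median was -0.03 without fat-1 PF 3. It was -0.02 with library totals in place of the scaled library size, where all genes had -0.09, and 0.16 without the 5 libraries that stood apart in segment genes (WT EtOH 2, fat-1 PF 2 and 4, fat-1 EtOH 3 and 4).

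Rpl38, a large subunit protein known for its role in translating Hox mRNAs in the mouse embryo, had the largest fold change. Its CPM was 81.1, 94.2, 79.0 and 80.4 in WT PF and 88.4, 88.9, 117 and 103 in fat-1 PF. All but WT PF 2 lay below the fat-1 PF libraries, with a log2 fold change of 0.25 (edgeR adjusted p = 0.357). Rpl35a, a large subunit gene that is mutated in some families with Diamond-Blackfan anaemia, had CPM of 89.0, 94.4, 92.6 and 88.8 in WT PF and 95.3, 105, 123 and 106 in fat-1 PF. The groups did not overlap for Rpl35a, which was also the case for Rpl36, and for 4.25% of all genes in the higher direction, while 0 members and 2.62% of all genes did not overlap in the lower direction. For Rpl35a the log2 fold change was 0.23 (edgeR adjusted p = 0.234).

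The lowest fold changes were those of Rps7 and Rplp0, both -0.09, Rpl15 at -0.07 and Rpl4 at -0.04, none of which passed the test. Rplp0 encodes the base of the stalk, and its CPM was 808, 999, 833 and 839 in WT PF and 851, 735, 950 and 736 in fat-1 PF. Its partner Rplp2 had CPM of 325, 391, 325 and 314 in WT PF and 370, 348, 458 and 389 in fat-1 PF, with a log2 fold change of 0.21 (edgeR adjusted p = 0.539). Both stalk genes overlapped between the genotypes.

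The ethanol comparison in WT mice gave the members lower values together, but none passed the edgeR quasi-likelihood test. Called genes were few in all, with 0.00724% of 13811 higher and 0.0724% lower, or 0.0796% in all. At an unadjusted p under 0.05, 0 members were higher and 3 lower (Rps7, Rps14 and Rpl26), against 7.05% and 7.1% of all genes. DESeq2 called 0 members, against 0.608% of all genes higher and 1.25% lower. With limma voom 9 members were called, all lower, against 9.86% of all genes higher and 10.4% lower. The median log2 fold change of the members was -0.14 (-0.33 to 0.08), that of all genes was 0.01, and 7 of 76 members were above 0 against 51.5% of all genes, but with library totals the median of the members was 0.0039, with 39 above 0, and that of all genes was 0.15. The median of the members was -0.07 without WT PF 2, and -0.16 to -0.10 when any other 1 of the libraries was left out. Small subunit, large subunit and stalk genes had medians of -0.14, -0.13 and -0.15. On the TMM scale, every WT EtOH library lay below every WT PF library for 24 members and above for 0, against 12.1% and 12.2% of all genes. The members move together from library to library, so the 24 are not independent. These 24 included Rps3, Rps7, Rps9, Rps15, Rps18, Rps27 and Rps27a of the small subunit and Rpl7a, Rpl12, Rpl13, Rpl13a and Rpl26 of the large subunit.

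Rps7, a small subunit protein also known to bind the p53 regulator Mdm2, had CPM of 228, 259, 250 and 229 in WT PF and 190, 190 and 204 in WT EtOH. The groups did not overlap, with a log2 fold change of -0.31 ± 0.112 (SE; edgeR adjusted p = 0.243). Rps14, the small subunit gene lost in the human 5q- syndrome, had CPM of 549, 634, 541 and 482 in WT PF and 403, 486 and 427 in WT EtOH. WT EtOH 2 lay above WT PF 4, and the log2 fold change was -0.33 ± 0.142 (edgeR adjusted p = 0.318). Rpl26, a large subunit protein near the exit of the nascent chain, had CPM of 199, 217, 193 and 182 in WT PF and 160, 165 and 175 in WT EtOH, with a log2 fold change of -0.25 (edgeR adjusted p = 0.321).

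A few members did not share the lower values. Rpl6, Rps26, Rpl3 and Rpl29 had the highest log2 fold changes, 0.08, 0.04, 0.03 and 0.03, and none passed the test. Rpl6 of the large subunit had CPM of 232, 257, 221 and 234 in WT PF and 241, 235 and 270 in WT EtOH, so the groups overlapped. Rpl3, which lies near the peptidyl transferase centre, had CPM of 396, 459, 400 and 391 in WT PF and 411, 390 and 460 in WT EtOH. Rps6, the substrate of the S6 kinases, had CPM of 210, 249, 204 and 207 in WT PF and 193, 205 and 217 in WT EtOH, with a log2 fold change of -0.09 (edgeR adjusted p = 0.779). Smooth muscle transcripts were higher and proximal small intestine transcripts lower in the same libraries, as given above, and their part in these fold changes was not tested.

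The ethanol comparison in fat-1 mice held most of the called genes of the study, and few ribosomal protein genes were among them. Of all 13811 genes, 18.7% were higher and 18.8% lower by the edgeR quasi-likelihood test, or 37.4% in all. Among the 76 members 0 were higher and 4 were lower, which is 5.26%. The 4 were Rpl13a, Rpl38, Rps2 and Rpl41. At an unadjusted p under 0.05, 0 members were higher and 5 lower (these and Rps14), against 24.9% and 23% of all genes. The median log2 fold change of the members was -0.07 (-0.33 to 0.16) against 0.05 for all genes, and 11 of 76 were above 0 against 53.9% of all genes, but the median was 0.08 with upper quartile scaling and 0.30 with library totals, which moved all genes up as well. Its direction rested on 1 library, since it was 0.04 without fat-1 PF 3, where all genes had 0.07, and -0.11 to -0.05 when any other 1 of the libraries was left out. Without fat-1 EtOH 3 and 4 it was -0.04, and without the 5 libraries that stood apart -0.14. The standard errors of the members were 0.0697 to 0.133 on the log2 scale, so a change of 2-fold in any of them would have been far outside its error.

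Rpl13a (ENSMUSG00000074129, chr7:45125558-45128761, minus strand, GRCm38) had CPM of 49.4, 41.6, 56.0 and 47.1 in fat-1 PF and 41.2, 36.1, 32.5, 36.7 and 46.5 in fat-1 EtOH. Its log2 fold change was -0.33 ± 0.112 (SE; edgeR adjusted p = 0.0314). The lowest library was fat-1 EtOH 3 and the groups overlapped, since fat-1 EtOH 5 lay above fat-1 PF 2. The values in WT mice were 46.3, 49.8, 44.9 and 45.2 on PF and 43.3, 34.1 and 38.9 on EtOH, a log2 fold change of -0.26 (edgeR adjusted p = 0.367). For Rpl13a the difference between the responses of the genotypes was -0.07 on the log2 scale (edgeR adjusted p = 0.903).

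Rpl38 (ENSMUSG00000057322, chr11:114668524-114672331, plus strand) had CPM of 88.4, 88.9, 117 and 103 in fat-1 PF and 74.9, 72.9, 73.5, 86.9 and 89.3 in fat-1 EtOH. Its log2 fold change was -0.32 ± 0.102 (edgeR adjusted p = 0.0228). Only fat-1 EtOH 5 reached the level of the fat-1 PF libraries, above replicates 1 and 2. The WT EtOH libraries had 67.9, 77.1 and 71.8 CPM, all below the WT PF libraries given above, with a log2 fold change of -0.21 (edgeR adjusted p = 0.420).

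Rps2 (ENSMUSG00000044533, chr17:24718116-24721929, plus strand), a small subunit protein at the mRNA entry channel, had CPM of 549, 436, 515 and 499.9 in fat-1 PF and 431, 392, 342, 405 and 447 in fat-1 EtOH. Its log2 fold change was -0.31 ± 0.107 (edgeR adjusted p = 0.0342), and the groups overlapped through fat-1 PF 2. Rpl41 (ENSMUSG00000093674, chr10:128548114-128549305, minus strand), which encodes a very short basic peptide of the large subunit, had CPM of 294, 281, 375 and 294 in fat-1 PF and 269, 254, 234, 265 and 269 in fat-1 EtOH. Its log2 fold change was -0.27 ± 0.0975 (edgeR adjusted p = 0.0421). Rpl41 was the only member whose groups did not overlap, against 13.4% of all genes in the lower direction.

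These 4 calls were near the limit. When each of the 16 libraries was left out in turn, Rpl38 passed in 13 fits, Rpl13a in 10, Rps2 in 9 and Rpl41 in 4, with log2 fold changes from -0.37 to -0.22 for Rpl38 and from -0.30 to -0.16 for Rpl41. All 4 were lost without fat-1 PF 3, without fat-1 PF 4 or without fat-1 EtOH 3. Rpl13a was also lost without fat-1 PF 1, fat-1 EtOH 2 or fat-1 EtOH 4. Rps2 was lost without those 3 and without WT PF 1. Rpl41 was lost without fat-1 EtOH 1, 2, 4 or 5, without WT PF 1, 2 or 3 and without WT EtOH 1 or 3. Without fat-1 EtOH 3 and 4, a choice made after seeing the data, 0 members were called, and the log2 fold changes were -0.21 for Rpl13a (edgeR adjusted p = 0.193), -0.30 for Rpl38 (adjusted p = 0.0617), -0.21 for Rps2 (adjusted p = 0.160) and -0.21 for Rpl41 (adjusted p = 0.167). In the same fit 2004 genes were still called higher and 2183 lower.

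Of the members that were not called, Rps14 came closest. Its CPM was 532, 579.7, 782 and 569.8 in fat-1 PF and 492, 457, 485, 499.9 and 532 in fat-1 EtOH, with a log2 fold change of -0.32 ± 0.123 (edgeR adjusted p = 0.0534). The highest fold changes were those of Rpl6 at 0.16, Rps4x at 0.13, Rplp0 at 0.08 and Rpl3 at 0.08. Rpl6 had CPM of 241, 224, 261 and 213 in fat-1 PF and 267, 249, 261, 259 and 277 in fat-1 EtOH, with overlapping groups (edgeR adjusted p = 0.140). Rps4x, the X-linked small subunit gene, had CPM of 440.2, 408, 509 and 400.0 in fat-1 PF and 469.7, 458, 449, 490.4 and 537 in fat-1 EtOH (edgeR adjusted p = 0.291).

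The stalk genes were not called in the fit of all libraries, and neither were Rps18, Rps27a, Rps6, Rpsa and Rpl10. Rplp1 had CPM of 883, 909, 1173 and 932 in fat-1 PF and 844, 829, 850.1, 936 and 926 in fat-1 EtOH, a log2 fold change of -0.15 (edgeR adjusted p = 0.314). For Rplp2 the log2 fold change was -0.25 (adjusted p = 0.129) and for Rplp0 it was 0.08 (adjusted p = 0.597). Without fat-1 EtOH 5, Rplp2 had -0.32 and was called lower (edgeR adjusted p = 0.0469). Rps18, often used as a reference in PCR, had a log2 fold change of -0.13 (adjusted p = 0.376), and Rps27a, which encodes ubiquitin fused to a ribosomal protein, had -0.17 (adjusted p = 0.244). Rps6 had CPM of 225, 226, 275 and 213 in fat-1 PF and 227, 212, 212, 226 and 265 in fat-1 EtOH, with a log2 fold change of -0.04 (edgeR adjusted p = 0.789). Rpsa, also known as the laminin receptor, had -0.13 (adjusted p = 0.400), and Rpl10, which joins at a late step of maturation, had 0.05 (adjusted p = 0.753). All 8 smooth muscle genes were called higher and 13 of 15 genes of the proximal small intestine lower in this comparison, with median log2 fold changes of 1.38 and -5.59, and their part in the values of the members was not tested.

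The last pair set the genotypes side by side under ethanol. No member passed the edgeR quasi-likelihood test, against 0% of all genes called higher and 0.00724% lower. At an unadjusted p under 0.05, 1 member was higher (Rpl36) and 0 were lower, against 3.4% and 1.46% of all genes. DESeq2 called 0 members, against 0.029% of all genes higher and 0.00724% lower, and limma voom called 0, against 0% and 0.00724%. The members lay slightly higher in fat-1 EtOH as a group, with a median log2 fold change of 0.12 (-0.07 to 0.27) against 0.04 for all genes. In all, 74 of 76 were above 0, the exceptions being Rps2 at -0.07 and Rpl13a at -0.01, against 56.8% of all genes. The medians were 0.13 for the small subunit, 0.12 for the large subunit and 0.12 for the stalk. The median was 0.08 without fat-1 EtOH 5, in which the B cell genes summed to 666 CPM against 12.1 to 106 CPM in WT EtOH, and the part of those cells was not tested. It was 0.09 without WT EtOH 1, 0.13 without fat-1 EtOH 3 and 4, and 0.15 without the 5 libraries that stood apart in segment genes.

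For 11 members every fat-1 EtOH library lay above every WT EtOH library, and for all genes this share was 1.43%, while no member and 1.02% of all genes showed the reverse. They included Rps15a and Rps27 of the small subunit and Rpl9, Rpl17, Rpl21, Rpl24, Rpl26, Rpl35a and Rpl36 of the large subunit. Since the members move together from library to library, these 11 are not independent. Rps27, a zinc finger protein of the small subunit, had the largest log2 fold change, 0.27 (edgeR adjusted p = 0.757), with CPM of 278, 313 and 298 in WT EtOH and 321, 334, 343, 362 and 426 in fat-1 EtOH. Rpl36 had CPM of 122, 123 and 130.0 in WT EtOH and 135, 139, 140.2, 152 and 152 in fat-1 EtOH. WT EtOH 1, the library in which 75 members were below their means, is 1 of only 3 in its group.

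No member passed the test for a difference between the genotypes in the response to ethanol. The interaction of genotype and diet gave 0 called members with edgeR, DESeq2 and limma voom, against 0% of all genes with each, and 0 members at an unadjusted p under 0.05 in either direction, against 3.5% and 4.76% of all genes. Its log2 values for the members ran from -0.17 for Rps2 to 0.22 for Rps7, with a median of 0.05 against 0.01 for all genes. That median was 0.0019 without WT PF 2, 0.01 without WT EtOH 1, 0.02 without fat-1 PF 2, fat-1 PF 4 or fat-1 EtOH 5, 0.03 without fat-1 PF 1 and 0.15 without fat-1 PF 3. It was 0.08 without fat-1 EtOH 3 and 4 and 0.0013 without the 5 libraries that stood apart. For Rps7 the log2 fold change with ethanol was -0.31 in WT against -0.09 in fat-1, and the difference had an adjusted p of 0.627 in edgeR. A p above the threshold does not show that the responses were equal.

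**Figure D4:**
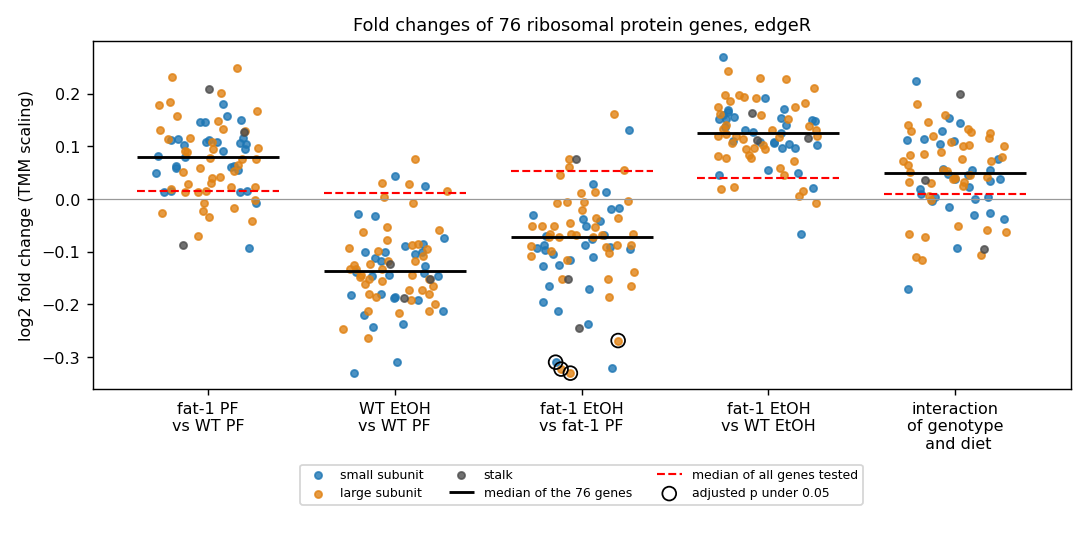
Log2 fold changes of the 76 ribosomal protein genes, with TMM scaling, in the 4 group comparisons and the interaction; each point is 1 gene, coloured by subunit, and circles mark an edgeR adjusted p under 0.05. Black lines are medians of the 76 genes and red dashed lines those of all genes tested; the members lie within -0.33 and 0.25 in the first 3 comparisons and up to 0.27 in fat-1 EtOH vs WT EtOH, and the only circles are 4 genes between fat-1 EtOH and fat-1 PF.

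The sign of the members' values depended on the scaling of the libraries, which moves all genes of a comparison by about the same amount, so the members are best read against all genes. Between fat-1 EtOH and fat-1 PF, library totals alone gave the members a median log2 fold change of 0.30 in place of -0.07 and 51 members called higher, but all genes then had a median of 0.43, and 45.6% of them were called higher and 7.66% lower. The median of the members minus that of all genes was -0.13 with TMM. The values of Rpl13a, Rpl38, Rps2 and Rpl41 moved with all genes to 0.04, 0.06, 0.05 and 0.10, below the median of all genes on that scale. The upper quartile scaling called 2 members higher (Rpl6 and Rps4x), against 28.3% of all genes, and none lower. In WT EtOH vs WT PF the median of the members minus that of all genes was -0.15 with TMM, and between fat-1 EtOH and WT EtOH it was 0.09. No member was called in WT EtOH vs WT PF under library totals, against 0.0145% of all genes higher and 0.101% lower. Between fat-1 EtOH and fat-1 PF this difference rested in part on fat-1 PF 3, and it was -0.04 without that library.

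When libraries were scaled to the summed count of the ribosomal protein genes themselves, each value read as the place of a member within the family. On this scale, chosen after seeing the data, Rpl38 alone was called between fat-1 EtOH and fat-1 PF, with a log2 fold change of -0.25 ± 0.0803 (edgeR adjusted p = 0.0303), against 19% of all genes called higher and 13% lower. Rpl13a had -0.26 (adjusted p = 0.0713), Rpl6 0.24 (adjusted p = 0.0552) and Rps4x 0.21 (adjusted p = 0.0888). Relative to the other members over the 16 libraries, Rpl13a and Rps2 varied most, with SDs of 0.168 and 0.150 on the log2 scale, and Rpl19 and Rpl11 least, with 0.0395 and 0.0405.

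**Figure D5:**
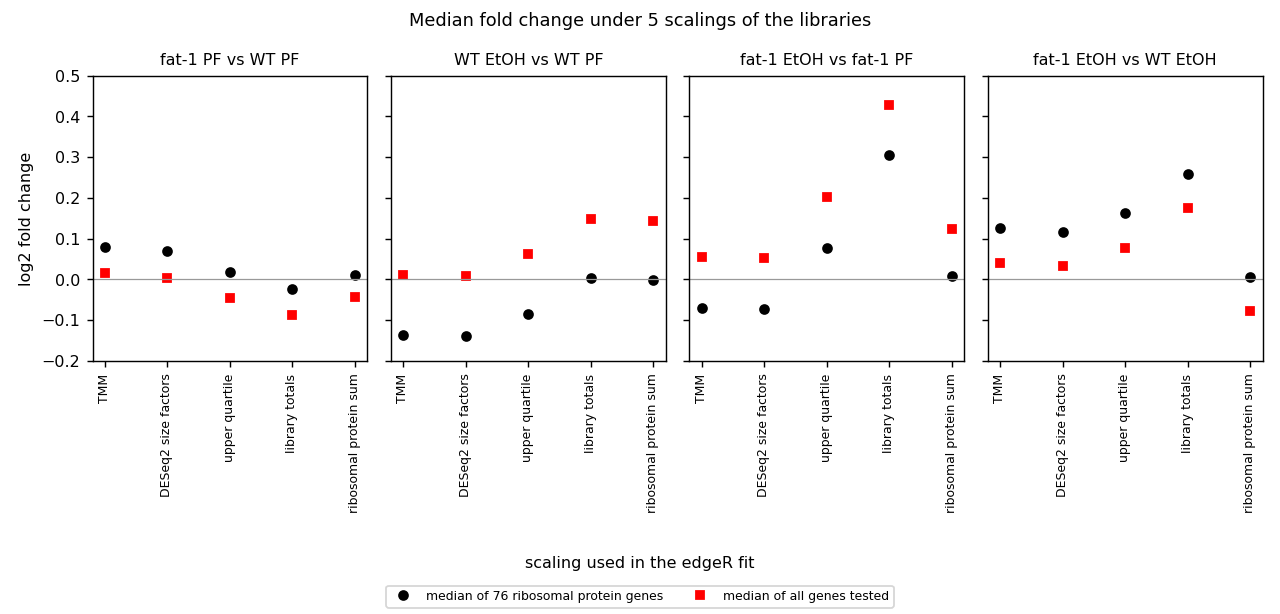
Median log2 fold change of the 76 ribosomal protein genes (black circles) and of all genes tested (red squares) in the 4 group comparisons under 5 scalings of the libraries in edgeR. Between fat-1 EtOH and fat-1 PF both medians move up under library totals, to 0.30 and 0.43, since a scaling shifts all genes by about the same amount.

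Some paralogues, fusions and related genes that the rule left out had fold changes outside the range of the members. The list is not made of paralogues alone, since Rps3a1 and Fau encode core proteins of the small subunit and fall outside the rule by their symbols. Of 11 in the table, 8 were tested, and between fat-1 EtOH and fat-1 PF 4 of these were called lower and 0 higher, against 18.8% and 18.7% of all genes. How many would be called without the libraries that stood apart is not given here. Smooth muscle genes were higher and proximal small intestine genes lower in this comparison, and their part was not tested. Rps27l, a paralogue of Rps27 that p53 induces, had CPM of 126, 121, 165 and 165 in fat-1 PF and 88.7, 86.3, 64.2, 71.6 and 83.1 in fat-1 EtOH. The groups did not overlap, and the log2 fold change was -0.87 ± 0.120 (edgeR adjusted p = 0.000296). In WT mice Rps27l had CPM of 109, 119, 104 and 98.1 on PF and 86.4, 91.0 and 81.9 on EtOH, with a log2 fold change of -0.31 (edgeR adjusted p = 0.325). For Rps27l the difference between the genotypes in response was -0.56 (edgeR adjusted p = 0.595).

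Fau, a fusion of a ubiquitin-like protein with small subunit protein S30, had CPM of 293, 399, 444 and 402 in fat-1 PF and 255, 270, 233, 267 and 282 in fat-1 EtOH. All fat-1 EtOH libraries lay below all fat-1 PF libraries, with a log2 fold change of -0.56 ± 0.122 (edgeR adjusted p = 0.00341). Rpl36al and Rpl22l1 were lower too, with log2 fold changes of -0.68 ± 0.203 (adjusted p = 0.0173) and -0.47 ± 0.106 (adjusted p = 0.00392). Rps3a1 was not called, with -0.16 (adjusted p = 0.254). Rpl3l, Rpl10l and Rpl39l did not pass the filter on low counts, and Rpl10l had no count in any library. With library totals alone, 1 of the 8 was called lower and 1 higher, against 7.66% and 45.6% of all genes. Paralogues share sequence with members, so reads may have been divided or lost between them.

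The proteins of the mitochondrial ribosome, which translates the mRNAs of mitochondrial DNA, were described in the same way. Of 78 genes, 77 were tested, and between fat-1 EtOH and fat-1 PF 52 were called lower and 0 higher, which is 67.5% against 18.8% of all genes. Their median log2 fold change was -0.33, and Mrps15 had -0.94 ± 0.144 (edgeR adjusted p = 0.000444) and Mrpl34 -0.94 ± 0.155 (adjusted p = 0.000652). For Mrps15, the mean CPM was 57.7 ± 14.1 (SD, n = 4) in fat-1 PF and 30.1 ± 3.54 (n = 5) in fat-1 EtOH, beside 33.0 ± 3.18 (n = 4) in WT PF and 29.6 ± 3.01 (n = 3) in WT EtOH. In fat-1 PF vs WT PF 0 were called, but 76 of 77 were above 0, with a median of 0.23, and 35 were higher at an unadjusted p under 0.05, against 52.5% and 9.25% of all genes. In WT EtOH vs WT PF the median was -0.15 with 0 called, and without the 5 libraries that stood apart 3 were called lower, against 1.76% of all genes. The mean log2 CPM of the list was 5.12 to 5.25 in fat-1 PF, above all other libraries (4.74 to 5.04). The 15 genes of the proximal small intestine were also highest in fat-1 PF as a group, with a mean log2 CPM of 9.20 ± 0.876 (SD, n = 4) against 7.81 ± 0.988 (n = 4) in WT PF, 4.34 ± 0.0184 (n = 3) in WT EtOH and 3.63 ± 1.41 (n = 5) in fat-1 EtOH. Smooth muscle genes were lowest there, with 6.71 ± 0.231 against 6.92 ± 0.162, 7.65 ± 0.196 and 7.96 ± 0.471, and the part of either list in these values was not tested. With library totals the median of the list was 0.04 and that of all genes 0.43, and 4 of the list were called higher and 7 lower, against 45.6% and 7.66% of all genes. Without fat-1 EtOH 3 and 4, 47 were called lower, against 16.04% of all genes. Without the 5 libraries that stood apart, 28 were called lower, which is 36.4% against 7.59% of all genes, and the median was -0.38.

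Of 42 ribosome biogenesis genes, 5 were called higher and 0 lower between fat-1 EtOH and fat-1 PF, which is 11.9% and 0% against 18.7% and 18.8% of all genes, with a median log2 fold change of 0.12. Utp20 and Wdr75, both of the small subunit processome, had 1.30 ± 0.311 (edgeR adjusted p = 0.00564) and 0.74 ± 0.215 (adjusted p = 0.0150). Nhp2 and Gar1, proteins of the particles that modify ribosomal RNA, had -0.28 (adjusted p = 0.0752) and -0.35 (adjusted p = 0.0933). Without the 5 libraries that stood apart in large intestine, ileum and proximal genes, 0 were called higher and 1 lower, in a fit that called 4.27% of all genes higher and 7.59% lower.

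Of 21 translation factors and other mRNAs known for terminal oligopyrimidine tracts, 3 were called higher and 2 lower in the same comparison, or 14.3% and 9.52% against 18.7% and 18.8% of all genes. Calls of this list without the libraries that stood apart are not given. The part of the smooth muscle and proximal small intestine genes, which moved as well, was not tested. Nap1l1 and Eif3a, a histone chaperone and a subunit of an initiation factor, had log2 fold changes of 0.53 (edgeR adjusted p = 0.0171) and 0.44 (adjusted p = 0.0213). Eif3k of the same initiation factor had -0.32 (adjusted p = 0.0107) and the elongation factor Eef1d -0.26 (adjusted p = 0.0159).

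Of 20 genes of S6 kinases and growth signalling, 5 were called higher and 2 lower, or 25% and 10% against 18.7% and 18.8% of all genes, with a median of 0.04. For this list too, calls without the libraries that stood apart are not given. Smooth muscle and proximal small intestine genes moved in the same comparison, and their part was not tested. Eif2ak4, the kinase that senses uncharged tRNA, had 1.23 (edgeR adjusted p = 0.00667) and Sesn3, a Sestrin that restrains mTOR, had 0.87 (adjusted p = 0.00208). Atf4, the transcription factor of the amino acid response, had -0.69 (adjusted p = 0.00290) and Rps6ka1 -0.46 (adjusted p = 0.00374). In the other 3 group comparisons and the interaction, 0 genes of these 5 lists were called with edgeR. DESeq2 called 7 mitochondrial ribosomal protein genes higher in fat-1 PF vs WT PF, against 1.25% of all genes. There limma voom called 1, against 0.181% of all genes higher and 0.0434% lower. In WT EtOH vs WT PF, limma voom called 20 mitochondrial ribosomal protein genes, 6 translation factors, 2 paralogues or fusions, 1 biogenesis gene and 2 growth signalling genes lower, and 0, 1, 0, 1 and 2 higher, against 10.4% of all genes lower and 9.86% higher. The lists differ from each other only as their own values show, since no test between them was run.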

How the data were processed

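The authors isolated RNA from the ileum, made stranded poly(A) libraries, aligned reads to mm10 with tophat2 guided by Ensembl transcripts, and deposited raw gene counts made with htseq. The version, the strand setting and the treatment of reads that fit several places are not given in the sources used here. The submitters' processing notes also name bcl2fastq, FastQC 0.10.1 and Cufflinks. The comparisons of the authors with cuffdiff2 were not used here. Groups were taken from the labels, 1 mouse a library.

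Counts of genes kept by filterByExpr were fitted in R 4.3.3 with edgeR 4.0.16 (TMM, robust quasi-likelihood, 1 mean for each of the 4 groups over all 16 libraries) and adjusted by Benjamini-Hochberg over 13811 genes at 0.05. CPM are counts per 1000000 of the TMM-scaled size, log2 values carry a pseudocount of 0.5, and TPM use exon lengths of GENCODE M21 (GRCm38), in which 26 genes of the table had no entry. Total counts were 8422645 to 11438539 per library. No library pair within a group differed by as little as sampling noise, the lowest chi-square per gene being 7.57. Pairs between groups were not compared in this way. Fits with DESeq2 1.42.0, limma 3.58.1, other scalings, filters and left-out libraries were alternatives (leaving out the libraries that stood apart was chosen after seeing the data), and the fitting code was tested on simulated data. Python 3.11.15 with pandas 2.3.3, scipy 1.17.1 and matplotlib 3.10.9 made summaries and plots.

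The members and the gene lists were chosen with earlier results of these data known. Named members were the 4 highest and 4 lowest of each comparison and of the mean TPM, and Rpsa, Rplp0, Rplp1, Rplp2, Rps6, Rps18, Rps27a, Rps4x, Rpl3, Rpl13a, Rpl10 and Rpl41; from other lists, the 2 highest and 2 lowest. A few genes that this rule or these lists hold are not reported here by name, but they stay in every fit, count and median. Rps14, Rpl36, Rpl19, Rpl11, Fau and further members named for missing overlap or an unadjusted p were chosen after their values were seen.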

Additional observations from a re-analysis of the deposited data

Results flagged for a closer look

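In groups of 4 or 5 libraries, 105 sets of values were searched for a library far from the others of its group (Dixon's criterion), and 18 were found. Chance flags about 1 in 20 groups, and the genes share their libraries, so these are few events seen many times. All 18 lay on the high side, in 3 libraries.

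In WT PF, replicate 2 was far above the other 3 libraries for Rpl3 with 459 CPM, Rpl38 with 94.2 CPM, Rplp0 with 999 CPM, Rplp2 with 391 CPM, Rps4x with 471 CPM and Rps6 with 249 CPM. For Rps6 the other libraries had 204 to 210 CPM.

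In fat-1 PF, replicate 3 was far above the rest for the mean log2 CPM of the 76 members, 8.30 against 7.95 in the others. Its CPM was 375 for Rpl41, 1173 for Rplp1, 953 for Rps12, 364 for Rps18 and 279 for Rps7. For Rps18 the other libraries had 265 to 275 CPM.

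In fat-1 EtOH, replicate 5 stood above the rest with 493 CPM for Rpl3, 105 CPM for Rpl35a, 408 CPM for Rplp2, 366 CPM for Rps15a, 267 CPM for Rps27a and 265 CPM for Rps6. For Rps15a the other libraries had 275 to 296 CPM.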

How the results depend on the processing

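Between fat-1 EtOH and fat-1 PF, the 4 members called lower became 5 with the DESeq2 Wald test (Rps14 added), 3 with the replicate block, 2 with a looser filter, 1 with limma voom, a stricter filter or scaling to the ribosomal protein genes, and 0 with the upper quartile, library totals, only the groups compared, or without the libraries that stood apart (2 or 5 libraries, chosen after seeing the data). Of all genes, the share called lower was 19.8% with DESeq2, 17.6% with the block, 13.5% and 18.6% with the looser and stricter filters, 15.7% with limma voom, 13% scaled to the ribosomal protein genes, 12.7% with the upper quartile, 7.66% with library totals, 11.9% with only the groups compared, and 16.04% and 7.59% without 2 or 5 libraries. Leaving out 1 library gave 0 to 4 calls. Called higher were 2 with the upper quartile and 51 with library totals, against 28.3% and 45.6% of all genes. The median was 0.0767 and 0.30 under these 2 scalings. Members that changed sign under library totals included Rpl13a, Rpl38, Rpl41, Rps2 and Rps6, at 0.0355, 0.0569, 0.1036, 0.0549 and 0.3371. Library totals moved the median of all genes from 0.05 to 0.43. In WT EtOH vs WT PF, limma voom called 9 members lower, against 10.4% of all genes. The median there was 0.0039 with library totals and -0.0013 when scaled to the ribosomal protein genes, a scaling that sets the members near 0 by its construction. Between fat-1 EtOH and WT EtOH the median was 0.26 and 0.0053 under these 2, and the interaction median was 0.28 with library totals. Leaving out 1 library gave medians of -0.03 to 0.12 in fat-1 PF vs WT PF and -0.11 to 0.04 between fat-1 EtOH and fat-1 PF. In WT EtOH vs WT PF they were -0.16 to -0.07, and for the interaction 0.0019 to 0.148. The causes were not tested.

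Nothing in the labels says that replicate numbers pair the mice. Deviations of same-numbered libraries of different groups correlated at -0.0225 on average over 21 pairs (-0.252 to 0.187). Those of other-numbered libraries correlated at 0.00703 over 74 pairs (-0.324 to 0.262). These correlations cannot show whether mice shared a litter or a day. With the replicate block, Rpl41 was no longer called (adjusted p = 0.085 in edgeR) and the medians were 0.07, -0.15, -0.09 and 0.10 in the 4 comparisons. Groups of 3 to 5 mice and standard errors near 0.1 on the log2 scale leave changes of the size seen here at the limit of detection.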
